A study of Homo sapiens with 9 samples.

Results

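The genes of glucose uptake, glycolysis, lactate export and pyruvate dehydrogenase control were followed as a group of 32 genes, picked by gene symbol from the 20379 genes of the deposited table, in HCCLM3, a human line established from hepatocellular carcinoma. Glycolysis splits glucose into pyruvate in the cytosol and yields ATP and NADH. Lactate dehydrogenase then turns pyruvate into lactate, which leaves the cell through monocarboxylate transporters, while pyruvate that enters mitochondria is oxidised by the pyruvate dehydrogenase complex unless its kinases switch the complex off. Most steps have several isozymes from separate genes, and liver tumour cells are known for using other isozymes than normal hepatocytes, such as PKM in place of PKLR. In these cells 1 isozyme supplied nearly all of the members' RNA at the steps of aldolase, enolase and pyruvate kinase, and 2 or more genes shared the steps of phosphofructokinase, lactate dehydrogenase and pyruvate dehydrogenase kinase. No member passed the edgeR test in either knockdown when all 9 libraries were used. Of all genes, 0.0158% passed there under UXS1 siRNA and 0% under MRPL42 siRNA. DESeq2 on the same libraries called ENO1 higher in both knockdowns and ALDOA higher under MRPL42 siRNA. It called 2.48% of all genes higher under UXS1 siRNA and 4.12% under MRPL42 siRNA. With 1 deviating control library left out, ALDOC rose in both knockdowns and ENO2 rose under MRPL42 siRNA in edgeR. That fit called 0.502% and 0.533% of all genes higher.

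All 3 groups were the same line, and each was transfected with 1 kind of siRNA: a control siRNA without a target, one against UXS1, which encodes UDP-glucuronate decarboxylase, or one against MRPL42, whose product belongs to the mitochondrial ribosome. Each group had 3 libraries of poly(A) RNA, called here a, b and c after the table's columns. The siRNA sequences, the time of harvest and the number of cultures are not given in the labels, so a p-value here measures spread between libraries that may be technical repeats. RNA of a whole culture was measured, so a lower level in every cell and a smaller number of cells with a high level cannot be told apart.

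The 9 libraries held 15265959 to 22400560 estimated counts, and 12657 genes had enough counts to be tested. Levels within a gene are given in CPM, counts relative to the TMM-adjusted total of the library. Levels of different genes are compared only per length, in CPM per kilobase, the CPM divided by the gene's transcript length in GENCODE 29, which 20128 of the genes had. The targeted genes checked the labels weakly. UXS1 stood at 144, 151 and 179.7 CPM in the control libraries and at 145, 138 and 141 CPM in the libraries labelled UXS1 siRNA (log2 fold change -0.17 ± 0.09, edgeR adjusted p = 0.348). MRPL42 stood at 100.4, 118 and 147 CPM in the control libraries and at 104, 93.05 and 81.8 CPM in those labelled MRPL42 siRNA (log2 fold change -0.39 ± 0.14, edgeR adjusted p = 0.185). In both pairs of groups 1 knockdown library lay inside the control range and the others below it. Control libraries a and b averaged 147.6 CPM of UXS1, against 141.1 in the UXS1 siRNA and 147.7 in the MRPL42 siRNA libraries. For MRPL42 they averaged 109.1 CPM, against 93.1 in the MRPL42 siRNA and 124.1 in the UXS1 siRNA libraries. The word knockdown here names a group by its label only. Liver markers were uneven: KRT8 reached 2229 to 3444 CPM per kilobase and ALB only 1.59 to 6.35 CPM per kilobase, and GPC3 and CPS1, which many liver tumours or hepatocytes express, were listed at 0 and at most 0.0394 CPM per kilobase.

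Among the 9 libraries, control library c differed from the rest, in the members as in the whole table. Of the 29 members tested, 8 were highest in control library c of all 9 libraries and 11 were lowest there, against 31.6% and 31.8% of all genes tested. SLC2A1, PDK1 and ENO3 lay over 1.5-fold above both other controls in it, as did 7.30% of all genes, and PDK2 and PDK4 lay over 1.5-fold below both, as did 7.94%. Hepatocyte markers moved both ways in it. FGA, FGB and FGG stood at 2.25, 0.806 and 0 CPM per kilobase there, against at least 19.7, 15.7 and 6.54 in the other 8. FOXA1 stood at 3.17 there, against at least 11.3, and HNF4A at 17.2, against at most 8.96. The summed level of 18 fibroblast, endothelial and leukocyte markers was 178 CPM per kilobase in control library c and 73.0 to 92.9 in the other 8. LUM gave 91.9 and CD68 69.05 CPM per kilobase of it there, against at most 14.6 and 57.8 in any other library. DCN stood at 8.30 to 11.7 CPM per kilobase, highest in control library c, and PECAM1, KDR and LYZ at 2.82 to 5.65, 0.669 to 6.21 and 0.797 to 5.09, all lowest there. The other 12 were under 1 CPM per kilobase in all 9 libraries, among them COL1A1, COL1A2, PDGFRB, VWF and PTPRC, with CDH5 at 0. Of 9 skeletal muscle and neural markers 8 were under 1 CPM per kilobase in all libraries, and TUBB3 had 175 in control library c and 91.9 to 124 in the others. The part of those transcripts in the values of that library was not tested. Each comparison with control siRNA was computed with and without control library c, and both knockdowns are set against the same controls.

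The genes differed widely in level. All members together made up 1.74% to 1.85% of the summed CPM per kilobase of each library, and the 17 genes from hexokinase to pyruvate kinase 1.45% to 1.60%. By mean CPM per kilobase GAPDH ranked 11 among the 20128 genes with a length, PKM 39, ENO1 46 and ALDOA 52, and LDHB followed at 104. The first 4 of these encode aldolase and 3 enzymes that act after it. At the other end SLC2A2, SLC2A3 and PKLR reached at most 6.67 estimated counts in any library and were left out of the tests by the filter. By step, glyceraldehyde-3-phosphate dehydrogenase had the highest mean sum, followed by pyruvate kinase, lactate dehydrogenase, enolase and aldolase, whose ranges over the libraries overlapped. The pyruvate dehydrogenase genes, the enzymes of fructose 2,6-bisphosphate and the glucose transporters had the lowest sums. Over the 8 libraries other than control library c the coefficient of variation of CPM ran from 2.96% for LDHA to 27.8% for ENO3, and that of SLC2A1 was 4.69%, against 79.3% with control library c. GAPDH, TPI1 and ENO2 all lie on the short arm of chromosome 12, on the plus strand. Their positions are chr12:6533927-6538374, chr12:6867119-6870948 and chr12:6913745-6923698 in GENCODE 29 on GRCh38.

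**Figure D1:**
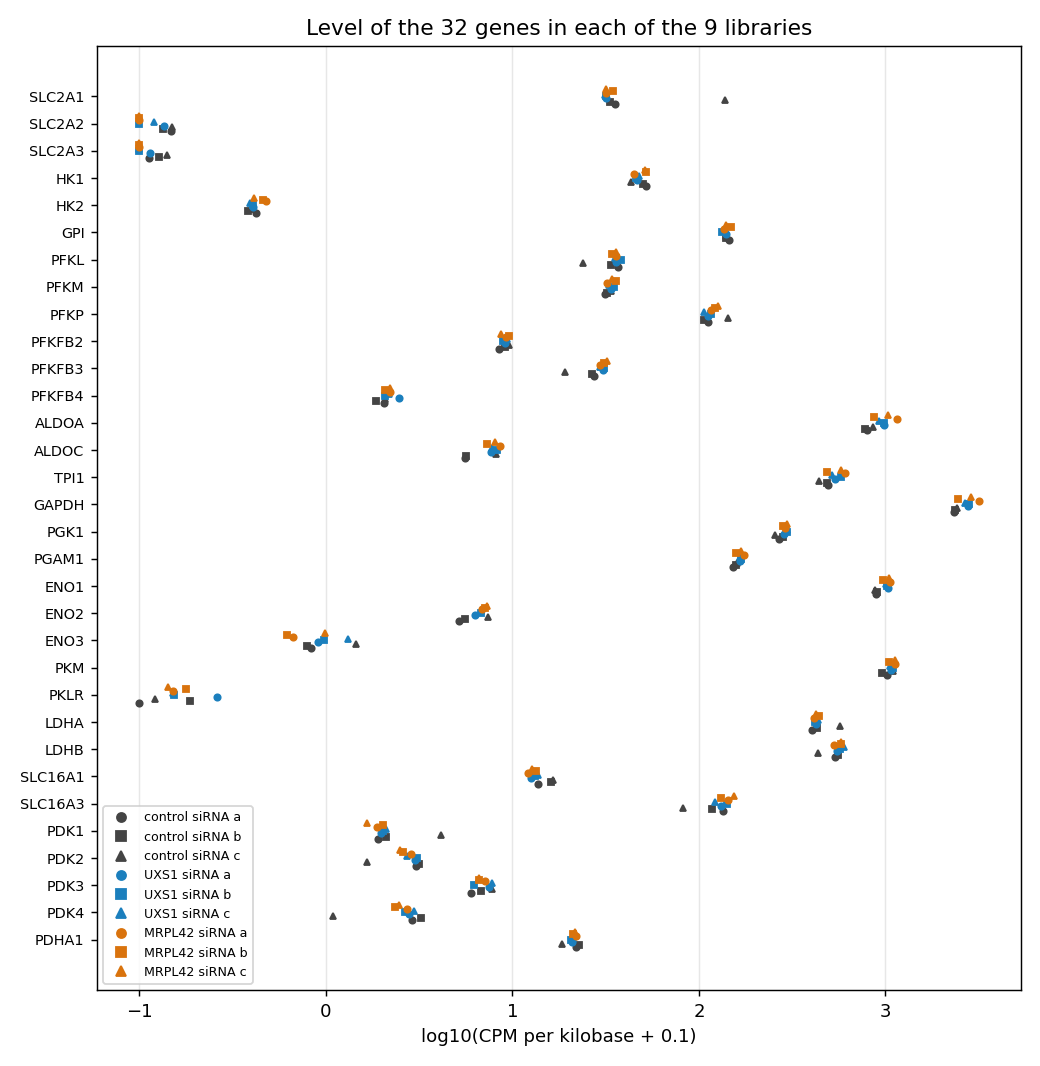
Level of each of the 32 genes on the log10(CPM per kilobase + 0.1) scale, 1 point per library, with colour for the siRNA group and shape for the library letter. The genes spread from about 0 CPM per kilobase (SLC2A2, SLC2A3, PKLR) to 3152 CPM per kilobase (GAPDH), and control library c departs to the right for SLC2A1 and PDK1 and to the left for PDK4.

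The 250 bases before the RefSeq start of a transcript are shown for 5 members on which the values turn: SLC2A1, PDK1 and LDHA, which were high in control library c, and ALDOC and ENO2, which rose in a knockdown once that library was left out. Many glycolytic genes are known targets of hypoxia-inducible factor, which can bind the letters ACGTG. Other sequences were not searched. Capitals mark ACGTG or its reverse complement CACGT, so both strands were searched, and CACGTG, a palindrome that other factors bind too, counts on both. The windows come from RefSeq on GRCh38.p14 and read 5′ to 3′ on the gene's strand: chr1:42958869-42959118 (minus strand), chr2:172555840-172556089 (plus strand, the second start listed), chr11:18394313-18394562 (plus strand, the first start listed), chr17:28576896-28577145 (minus strand) and chr12:6914330-6914579 (plus strand).
SLC2A1: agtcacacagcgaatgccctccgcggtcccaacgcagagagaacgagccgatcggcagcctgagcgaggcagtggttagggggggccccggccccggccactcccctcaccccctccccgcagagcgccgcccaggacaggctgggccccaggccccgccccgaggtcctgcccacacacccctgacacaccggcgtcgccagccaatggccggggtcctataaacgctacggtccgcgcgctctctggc
PDK1: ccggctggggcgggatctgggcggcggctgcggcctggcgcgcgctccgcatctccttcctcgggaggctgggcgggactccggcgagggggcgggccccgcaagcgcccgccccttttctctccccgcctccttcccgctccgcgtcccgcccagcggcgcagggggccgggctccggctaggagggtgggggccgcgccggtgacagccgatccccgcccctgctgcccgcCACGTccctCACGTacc
LDHA: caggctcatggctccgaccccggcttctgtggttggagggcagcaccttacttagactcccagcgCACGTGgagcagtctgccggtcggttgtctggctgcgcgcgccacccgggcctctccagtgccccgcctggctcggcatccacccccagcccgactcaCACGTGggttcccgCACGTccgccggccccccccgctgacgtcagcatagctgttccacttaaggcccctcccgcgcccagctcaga
ALDOC: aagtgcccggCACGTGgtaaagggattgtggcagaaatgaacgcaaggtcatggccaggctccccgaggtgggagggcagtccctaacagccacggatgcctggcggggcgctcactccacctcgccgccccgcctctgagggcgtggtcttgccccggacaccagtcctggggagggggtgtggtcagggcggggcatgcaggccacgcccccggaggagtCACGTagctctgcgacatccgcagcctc
ENO2: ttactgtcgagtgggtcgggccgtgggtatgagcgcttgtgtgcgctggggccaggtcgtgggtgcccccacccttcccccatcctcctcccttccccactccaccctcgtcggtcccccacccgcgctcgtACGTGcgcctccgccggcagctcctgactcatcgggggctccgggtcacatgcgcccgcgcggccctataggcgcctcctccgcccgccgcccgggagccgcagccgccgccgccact
The LDHA window held 5 matches, 4 of them from 2 palindromes, the ALDOC window 3 from 1 palindrome and 1 further match, the PDK1 window 2 and the ENO2 window 1, while these letters were not in the SLC2A1 window. The window of the other listed start of LDHA and that of PDK1, not shown, held no match. Of the 29 members with a window, 17 (58.6%) had a match in at least 1 of their windows, against 21.7% of all 27305 genes with a window. By window the shares were 33.9% of the members' 59 windows and 18.5% of all 35116. A match describes the letters only.

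Among the 3 member genes for glucose uptake, SLC2A1 supplied nearly all of the RNA. SLC2A1, the widespread glucose transporter GLUT1, made up 99.8% or more of the summed CPM per kilobase of SLC2A1, SLC2A2 and SLC2A3 in every library. SLC2A2, the transporter of normal hepatocytes, and SLC2A3, the neuronal form, had at most 3 estimated counts in a library. Of 6 further transporters of the SLC2A family outside the members, SLC2A8 had 12.8 to 17.5 CPM per kilobase and SLC2A13, a transporter of myo-inositol, 3.63 to 8.54, against 31.4 to 35.3 for SLC2A1 in 8 libraries; the others were at most 0.229. SLC2A1 (gene at chr1:42925375-42959176, minus strand, GRCh38) stood at 129.6, 122 and 506 CPM in control libraries a, b and c, 116, 116 and 115 CPM in the UXS1 siRNA libraries and 117, 126 and 116 CPM in the MRPL42 siRNA libraries. The value in control library c was 4.03 times the mean of a and b, and the other 8 libraries lay within 115 to 129.6 CPM. SLC2A1 had the most negative difference in both knockdowns (log2 fold change -1.13 ± 0.47 under UXS1 siRNA and -1.07 ± 0.47 under MRPL42 siRNA), and neither passed the test (edgeR adjusted p = 0.259 and 0.240). Without control library c the log2 fold changes were -0.13 and -0.07, with edgeR adjusted p = 0.259 and 0.528. The UXS1 siRNA libraries still lay below both remaining controls, and MRPL42 siRNA library b lay between them.

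Hexokinase traps glucose as glucose 6-phosphate. Of the members HK1 and HK2, HK1 gave 99.2% to 99.4% of the summed CPM per kilobase. HK2, the isozyme that many tumours raise, stayed at 0.282 to 0.381 CPM per kilobase, with 26 to 40 estimated counts per library. HK1 stood at 187, 181 and 155 CPM in control libraries a, b and c, 167, 166 and 172 CPM in the UXS1 siRNA libraries and 162, 186 and 184 CPM in the MRPL42 siRNA libraries, and its libraries overlapped between all 3 groups (log2 fold change -0.05 and 0.03, and -0.14 and -0.06 without control library c). A gene outside the members outweighed both: HKDC1, a hexokinase-related enzyme, had 53.8 to 86.6 CPM per kilobase and supplied 53.4% to 56.1% of the CPM per kilobase of HK1, HK2, HK3 and HKDC1 together in 8 libraries and 66.6% in control library c. GPI, which converts glucose 6-phosphate to fructose 6-phosphate, stood at 449, 436 and 435 CPM in control libraries a, b and c, 433, 416 and 427 CPM in the UXS1 siRNA libraries and 424, 463 and 437 CPM in the MRPL42 siRNA libraries. Its UXS1 siRNA libraries all lay just below the controls and its MRPL42 siRNA libraries on both sides of them (log2 fold change -0.05 ± 0.06 and 0.0038 ± 0.06, and -0.07 and -0.01 without control library c).

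Phosphofructokinase commits the sugar to glycolysis, and its RNA came from 3 genes. PFKP, the platelet type, gave 60.9% to 64.2% of the summed CPM per kilobase in 8 libraries and 71.3% in control library c. The muscle type PFKM gave 16.8% to 18.9% and the liver type PFKL 17.7% to 20.4%, with 11.9% in control library c. With the median length of all annotated transcripts PFKP still led, PFKM had 21.2% to 23.3% and PFKL only 5.56% to 6.57% in those 8 libraries. PFKP stood at 297, 283 and 378 CPM in control libraries a, b and c, 295, 307 and 282 CPM in the UXS1 siRNA libraries and 308, 325 and 334 CPM in the MRPL42 siRNA libraries. All knockdown libraries but UXS1 siRNA library c lay inside the control range, and the log2 fold changes were -0.11 and 0.01, and 0.01 and 0.14 without control library c. PFKM ranged from 91.3 to 105 CPM over all 9 libraries, and PFKL from 98.6 to 112 CPM in 8, with 69.1 CPM in control library c. Among the enzymes that set fructose 2,6-bisphosphate, the activator of phosphofructokinase, PFKFB3 led with 71.1% to 74.8% of the family's CPM per kilobase in 8 libraries and 62.3% in control library c. PFKFB2 followed with 20.2% to 31.2%, and PFKFB4 supplied 4.68% to 6.48%. That order rests on the length used: with the median length of all annotated transcripts, PFKFB2 led with 62.2% and PFKFB3 had 33.1% as means over the 9 libraries. In CPM, PFKFB2 ranged from 59.4 to 67.6 and PFKFB4 from 6.30 to 8.54, with log2 fold changes of 0.01 and 0.02 and of 0.18 and 0.13.

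PFKFB3 stood at 122, 119 and 85.4 CPM in control libraries a, b and c, 137, 139 and 132 CPM in the UXS1 siRNA libraries and 132, 138 and 143 CPM in the MRPL42 siRNA libraries. All 6 knockdown libraries were above all 3 controls, and control library c was the lowest of the 9. The log2 fold change was 0.32 ± 0.12 under UXS1 siRNA and 0.34 ± 0.12 under MRPL42 siRNA (edgeR adjusted p = 0.225 and 0.177), and without control library c 0.16 ± 0.06 and 0.19 ± 0.06 (edgeR adjusted p = 0.161 and 0.110). With a correction for transcript length and without control library c, the MRPL42 siRNA value of 0.25 passed the test (edgeR adjusted p = 0.0437; 2.29% of all genes passed there, 1.03% higher) and the UXS1 siRNA value of 0.22 did not (edgeR adjusted p = 0.0735).

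**Figure D2:**
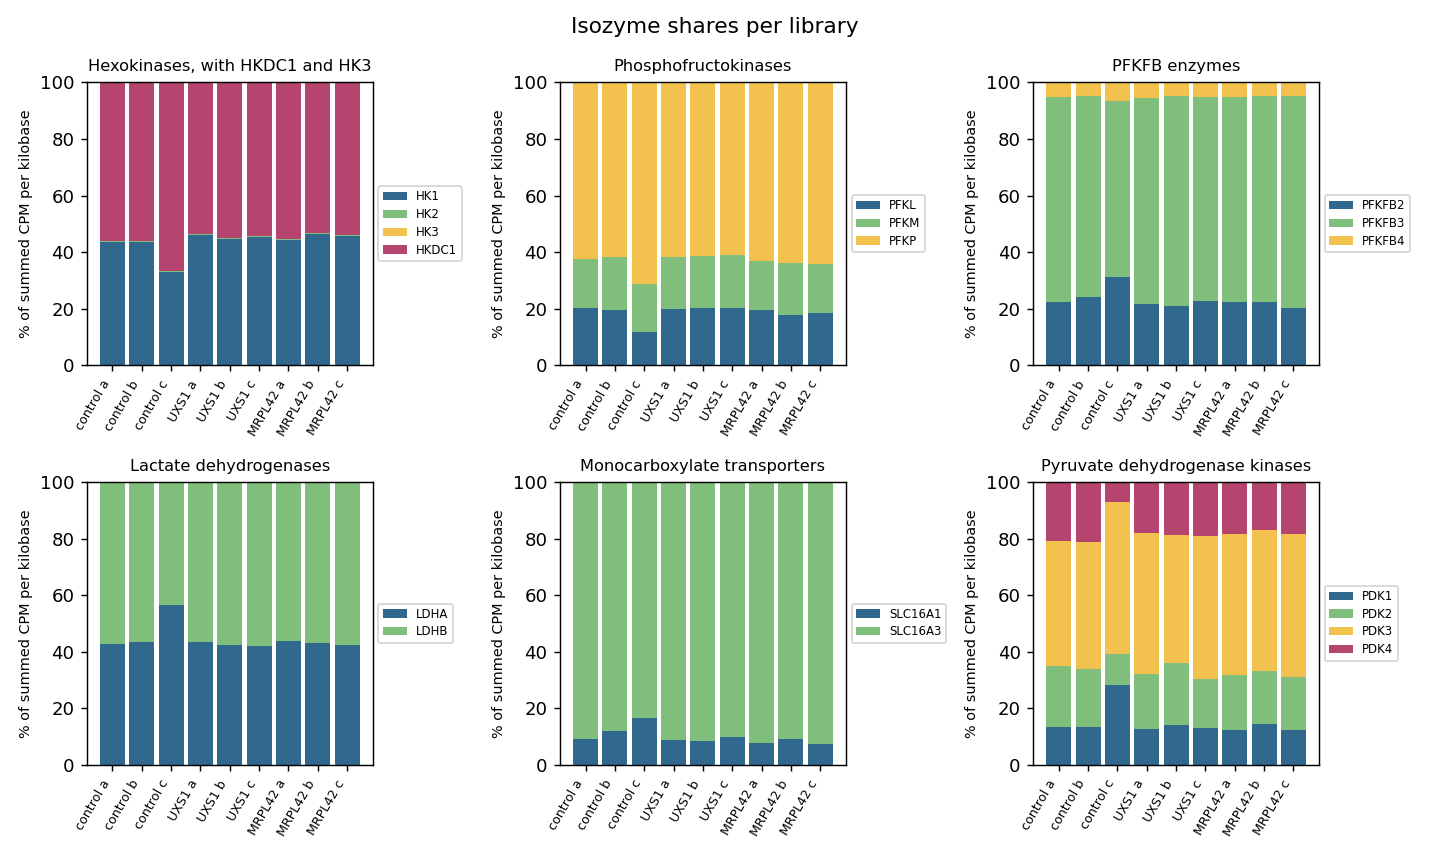
Share of each isozyme in the summed CPM per kilobase of its family, in percent, 1 bar per library, for 6 families with more than 1 gene above trace level. The 8 libraries other than control library c look alike in every panel, and control library c holds more HKDC1, PFKP, LDHA and PDK1.

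Aldolase splits fructose 1,6-bisphosphate, and ALDOA, the muscle and general form, supplied 99.1% to 99.3% of the CPM per kilobase of ALDOA and ALDOC. ALDOA (gene at chr16:30064164-30070457, plus strand) stood at 1228, 1204 and 1325 CPM in control libraries a, b and c, 1517, 1526 and 1427 CPM in the UXS1 siRNA libraries and 1787, 1349 and 1595 CPM in the MRPL42 siRNA libraries. All 6 knockdown libraries were above all 3 controls, with MRPL42 siRNA library b closest to them. The log2 fold change was 0.25 ± 0.10 under UXS1 siRNA and 0.33 ± 0.10 under MRPL42 siRNA (edgeR adjusted p = 0.238 and 0.141), and 0.28 and 0.37 without control library c. The MRPL42 siRNA difference passed the test in DESeq2 (adjusted p = 0.0430), where 4.12% of all genes were called higher, and, at 0.43, in edgeR without MRPL42 siRNA library b (adjusted p = 0.0137). With the length correction it missed the threshold, at 0.19 (edgeR adjusted p = 0.306).

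ALDOC, the brain form, made up only 0.688% to 0.936% of the aldolase CPM per kilobase and had the highest positive difference of all tested members once control library c was left out. ALDOC (gene at chr17:28573115-28577264, minus strand) stood at 10.2, 10.2 and 14.96 CPM in control libraries a, b and c, 14.03, 15.1 and 14.3 CPM in the UXS1 siRNA libraries and 15.7, 13.3 and 14.8 CPM in the MRPL42 siRNA libraries. Control libraries a and b were the lowest of the 9, and control library c lay among the knockdowns. Without control library c ALDOC rose under UXS1 siRNA by 0.49 ± 0.10 on the log2 scale, 1.41-fold, and under MRPL42 siRNA by 0.51 ± 0.10, 1.43-fold (edgeR adjusted p = 0.0331 and 0.0340). With all libraries the log2 fold changes were 0.30 ± 0.15 and 0.31 ± 0.15 (edgeR adjusted p = 0.335 and 0.275). The calls thus rest on 2 control libraries, with 197 and 188 estimated counts of ALDOC.

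TPI1, which interconverts the triose phosphates, stood at 604, 594 and 539 CPM in control libraries a, b and c, 660.2, 714 and 638 CPM in the UXS1 siRNA libraries and 746, 600.2 and 709 CPM in the MRPL42 siRNA libraries. The UXS1 siRNA libraries lay above all controls, and MRPL42 siRNA library b lay inside the control range (log2 fold change 0.21 ± 0.09 and 0.24 ± 0.09, edgeR adjusted p = 0.273 and 0.199). GAPDH, which makes the NADH of glycolysis, stood at 3136, 3186 and 3239.9 CPM in control libraries a, b and c, 3724, 3774 and 3573 CPM in the UXS1 siRNA libraries and 4249, 3308 and 3877 CPM in the MRPL42 siRNA libraries. All 6 knockdown libraries were above the controls, MRPL42 siRNA library b by the least, and the log2 fold changes were 0.21 ± 0.09 and 0.26 ± 0.09 (edgeR adjusted p = 0.259 and 0.167). With control library c left out the values were 0.15 and 0.19 for TPI1 and 0.21 and 0.26 for GAPDH. Without MRPL42 siRNA library b, TPI1 and GAPDH passed the test in MRPL42 siRNA with log2 fold changes of 0.33 and 0.35 (edgeR adjusted p = 0.0462 and 0.0161). In that fit 6.33% of all genes passed and 5.85% passed as higher.

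TPI1, GAPDH and ALDOA have short transcripts of 1231, 1348 and 1550 bases, against a median of 2993 over the genes tested, and level moved with transcript length between libraries. Per doubling of length, log2 CPM relative to the mean of all libraries changed by 0.05, 0.07 and 0.13 in control libraries a, b and c. It changed by -0.03, -0.07 and -0.01 in the UXS1 siRNA libraries and by -0.10, 0.04 and -0.08 in the MRPL42 siRNA libraries. The part of transcript length in the values of these genes was not tested beyond the corrected fit. With the length correction the TPI1 values became 0.0006 ± 0.05 and 0.02 ± 0.05 and the GAPDH values 0.03 ± 0.06 and 0.07 ± 0.06.

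PGK1 makes the first ATP of the pathway and stood at 1321, 1377 and 1246 CPM in control libraries a, b and c, 1399, 1444 and 1452 CPM in the UXS1 siRNA libraries and 1417, 1381 and 1445 CPM in the MRPL42 siRNA libraries. All 6 knockdown libraries were above the controls, MRPL42 siRNA library b only just (log2 fold change 0.12 ± 0.06 and 0.11 ± 0.06, edgeR adjusted p = 0.316 and 0.332). These values were 0.07 and 0.06 without control library c. PGAM1, the mutase that moves the phosphate of phosphoglycerate, stood at 279, 288 and 292 CPM in control libraries a, b and c, 302, 308 and 303 CPM in the UXS1 siRNA libraries and 318, 289 and 306 CPM in the MRPL42 siRNA libraries. Its UXS1 siRNA libraries lay above the controls, and its MRPL42 siRNA libraries overlapped them (log2 fold change 0.09 and 0.09, and 0.09 and 0.10 without control library c).

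Enolase makes phosphoenolpyruvate, and ENO1 supplied 99.02% to 99.3% of the CPM per kilobase of its 3 genes. ENO1 (gene at chr1:8861000-8879250, minus strand) stood at 1832, 1853 and 1803 CPM in control libraries a, b and c, 2125, 2111 and 2074 CPM in the UXS1 siRNA libraries and 2179.7, 2011 and 2147 CPM in the MRPL42 siRNA libraries. All 6 knockdown libraries stood above all 3 controls, by more than the controls differed among themselves. The log2 fold change was 0.20 ± 0.06 under UXS1 siRNA and 0.21 ± 0.06 under MRPL42 siRNA, 1.15-fold and 1.16-fold, which edgeR did not call (adjusted p = 0.174 and 0.137). DESeq2 called both higher (adjusted p = 0.0140 and 0.00461), as it did 2.48% and 4.12% of all genes. ENO1 kept a difference of 0.16 and 0.16 with the length correction (edgeR adjusted p = 0.254 and 0.229) and 0.18 and 0.19 without control library c (edgeR adjusted p = 0.126 and 0.102).

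ENO2, the neuronal form, made up 0.568% to 0.828% of the enolase CPM per kilobase, and ENO3, the muscle form, had 12 to 38 estimated counts per library (log2 fold change 0.05 ± 0.33 and -0.47 ± 0.35). ENO2 stood at 12.95, 13.96 and 18.6 CPM in control libraries a, b and c, 15.9, 16.99 and 17.03 CPM in the UXS1 siRNA libraries and 17.4, 17.9 and 18.3 CPM in the MRPL42 siRNA libraries. Control libraries a and b were the lowest of the 9 and control library c the highest. Without control library c ENO2 rose under MRPL42 siRNA by 0.40 ± 0.08 on the log2 scale, 1.32-fold (edgeR adjusted p = 0.0462), while the UXS1 siRNA value of 0.29 ± 0.08 missed the threshold (edgeR adjusted p = 0.114). The test of the difference itself, UXS1 siRNA against MRPL42 siRNA, gave -0.11 ± 0.07 on the log2 scale (edgeR adjusted p = 0.870). With all 9 libraries the values were 0.13 ± 0.13 and 0.24 ± 0.13 (edgeR adjusted p = 0.608 and 0.318).

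**Figure D3:**
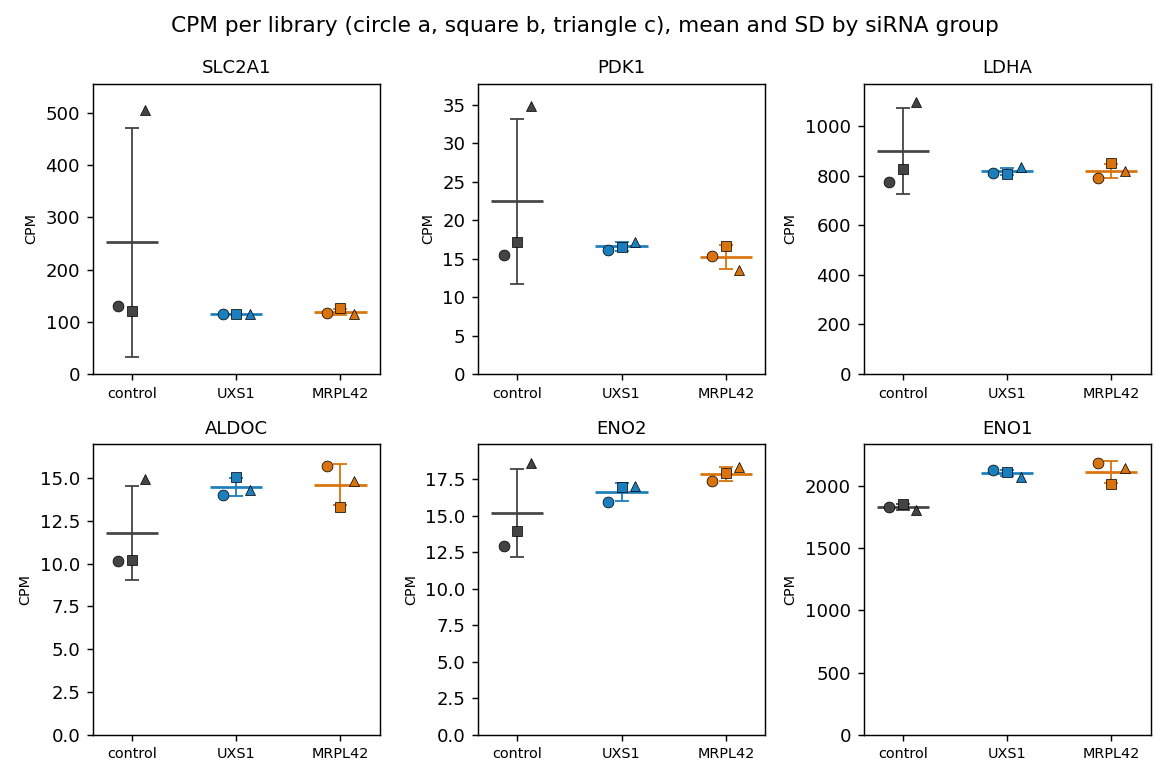
CPM of 6 members per library on linear axes from 0, with the group mean as a line and the SD of 3 libraries as whiskers, and shape for the library letter. Control library c sits far above the other controls for SLC2A1, PDK1 and LDHA, among the knockdowns for ALDOC, above all others for ENO2, and with the other controls for ENO1, where the 6 knockdown libraries lie at 2011 CPM or more and the controls at 1853 CPM or less.

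Pyruvate kinase yields pyruvate and the last ATP. PKM supplied 99.98% or more of the CPM per kilobase of PKM and PKLR, and PKLR, the liver and red cell gene, reached at most 0.162 CPM per kilobase. The table has 1 value per gene, so the splice forms PKM1 and PKM2 cannot be told apart. PKM stood at 2751, 2615 and 2968 CPM in control libraries a, b and c, 2919, 2989.7 and 2869 CPM in the UXS1 siRNA libraries and 3050.3, 2833 and 3043 CPM in the MRPL42 siRNA libraries. Control libraries a and b were below all 6 knockdown libraries and control library c among them (log2 fold change 0.07 ± 0.07 and 0.10 ± 0.07, edgeR adjusted p = 0.579 and 0.408). The values were 0.11 and 0.14 without control library c (edgeR adjusted p = 0.301 and 0.187).

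Lactate dehydrogenase RNA came from both genes, in similar amounts. LDHB gave 56.3% to 57.9% of their summed CPM per kilobase in 8 libraries and 43.3% in control library c, the only library where LDHA led. With the median length of all annotated transcripts LDHB still led in those 8 libraries, at 50.1% to 51.7%, and had 37.3% in control library c. LDHA, the subunit that favours the making of lactate, stood at 773, 826 and 1096 CPM in control libraries a, b and c, 811, 805 and 834 CPM in the UXS1 siRNA libraries and 792, 849 and 819 CPM in the MRPL42 siRNA libraries. LDHB, whose subunit favours its use, stood at 766, 789 and 619 CPM in control libraries a, b and c, 777, 813 and 847 CPM in the UXS1 siRNA libraries and 754, 822 and 819 CPM in the MRPL42 siRNA libraries. Control library c was highest of the 9 for LDHA and lowest for LDHB, and the other 8 lay within 773 to 849 CPM and 754 to 847 CPM. The log2 fold changes were -0.14 ± 0.12 and -0.13 ± 0.12 for LDHA and 0.16 ± 0.09 and 0.14 ± 0.09 for LDHB, and without control library c 0.02 ± 0.06 and 0.03 ± 0.06 and 0.05 ± 0.06 and 0.03 ± 0.06. The direction of LDHA thus turned when control library c was left out, and no LDHA or LDHB value passed the edgeR test.

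Lactate leaves by SLC16A3 (MCT4), the exporter of glycolytic cells, and by SLC16A1 (MCT1), which carries lactate either way. SLC16A3 gave 87.99% to 92.5% of their CPM per kilobase in 8 libraries and 83.4% in control library c. SLC16A3 stood at 278, 241 and 169 CPM in control libraries a, b and c, 269.6, 292 and 251 CPM in the UXS1 siRNA libraries and 296, 270.0 and 318 CPM in the MRPL42 siRNA libraries. Control library c was the lowest, the other libraries overlapped, and the log2 fold changes of 0.24 ± 0.16 and 0.36 ± 0.16 became 0.05 and 0.18 without it. SLC16A1 stood at 56.5, 66.2 and 67.7 CPM in control libraries a, b and c, 51.7, 54.5 and 56.4 CPM in the UXS1 siRNA libraries and 49.9, 54.8 and 52.1 CPM in the MRPL42 siRNA libraries. It was the member whose knockdown libraries all lay below the controls in both comparisons, though UXS1 siRNA library c lay only just below control library a (log2 fold change -0.23 ± 0.08 and -0.28 ± 0.08, edgeR adjusted p = 0.217 and 0.141). Without control library c the values were -0.19 ± 0.08 and -0.24 ± 0.08 (edgeR adjusted p = 0.234 and 0.140).

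The pyruvate dehydrogenase kinases, which phosphorylate the complex and hold it inactive, had the lowest summed CPM per kilobase of the 10 isozyme families. By CPM per kilobase PDK3 gave 44.1% to 50.7% of the sum of PDK1 to PDK4 in 8 libraries, PDK2 17.3% to 21.97%, PDK4 16.96% to 21.04% and PDK1 12.2% to 14.6%. In control library c PDK3 held 53.7%, PDK1 28.4%, PDK2 10.9% and PDK4 6.97%. Which kinase leads depended on the length used: with the median length of all annotated transcripts, PDK1 had 40.96% and PDK3 11.8% of the family as means over the 9 libraries, against 14.9% and 48.7% with the principal transcripts. PDK3 stood at 11.4, 12.9 and 14.7 CPM in control libraries a, b and c, 14.1, 11.8 and 14.8 CPM in the UXS1 siRNA libraries and 13.6, 12.6 and 12.5 CPM in the MRPL42 siRNA libraries. Its libraries overlapped between all groups, and the log2 fold changes were 0.06 ± 0.12 and -0.01 ± 0.12 (edgeR adjusted p = 0.824 and 0.960), and 0.14 and 0.08 without control library c.

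PDK1, a known hypoxia-responsive kinase, stood at 15.4, 17.1 and 34.8 CPM in control libraries a, b and c, 16.1, 16.5 and 17.2 CPM in the UXS1 siRNA libraries and 15.4, 16.6 and 13.5 CPM in the MRPL42 siRNA libraries. Control library c had 2.14 times the mean of a and b, and the other 8 libraries overlapped. The log2 fold change was -0.43 ± 0.27 and -0.57 ± 0.27 with all libraries (edgeR adjusted p = 0.423 and 0.268) and 0.02 and -0.11 without control library c. PDK4, which fasting and fatty acids induce, ran the other way: it stood at 10.01, 11.2 and 3.55 CPM in control libraries a, b and c, 9.62, 9.12 and 10.3 CPM in the UXS1 siRNA libraries and 9.43, 8.02 and 8.50 CPM in the MRPL42 siRNA libraries. Its log2 fold changes went from 0.23 and 0.06 to -0.15 and -0.30 without control library c, and those of PDK2 from 0.17 and 0.01 to -0.09 and -0.25, a turn of direction for both genes. PDK2 ranged from 8.29 to 10.6 CPM in 8 libraries, with 5.36 CPM in control library c. PDHA1, the subunit of the complex that the kinases phosphorylate, stood at 72.1, 75.3 and 60.7 CPM in control libraries a, b and c, 68.9, 67.9 and 69.5 CPM in the UXS1 siRNA libraries and 72.3, 69.7 and 71.8 CPM in the MRPL42 siRNA libraries, with log2 fold changes of -0.01 and 0.04, and of -0.11 and -0.05 without control library c.

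The isozyme shares were tested between groups. For the leading member of each of the 10 families, 30 exact two-sided permutation tests of the share were run over the 3 comparisons, where 3 libraries against 3 cannot give a p below 0.1. None reached an adjusted p below 0.667, and 4 gave the smallest p possible. Those 4 were SLC2A1 and SLC16A3 in MRPL42 siRNA against control siRNA and PFKP in UXS1 siRNA against each of the other groups. The mean share of SLC2A1 was 100% against 99.86%. SLC2A2 and SLC2A3 had 0 estimated counts in the MRPL42 siRNA libraries and at most 3 in any library. The mean share of SLC16A3 was 91.9% against 87.4%. That of PFKP was 61.3% in UXS1 siRNA, 65.1% in control siRNA and 63.6% in MRPL42 siRNA. LDHB held 52.3% ± 7.82 (SD, n = 3) of its family in control siRNA, 57.3% ± 0.801 in UXS1 siRNA and 56.8% ± 0.607 in MRPL42 siRNA. PFKFB3 held 68.7% ± 5.51, 73.1% ± 1.06 and 73.4% ± 1.27. Control libraries a and b alone had 57.3% and 56.4% LDHB and 72.5% and 71.1% PFKFB3, close to the knockdown libraries, and control library c set the control SD.

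Across the tested members, the values with all libraries were centred slightly above 0. With UXS1 siRNA, 0 of 29 members passed the edgeR test at an adjusted p below 0.05, where 0.0158% of all genes did (2 genes, both lower), and 7 members had an unadjusted p below 0.05, against 17.8% of all genes. The median log2 fold change was 0.09 over the members and -0.0047 over all genes, and 21 of 29 were above 0. With MRPL42 siRNA, 0 of 29 passed, as did 0% of all genes, 8 had an unadjusted p below 0.05, against 20.2% of all genes, and the median was 0.09 against -0.01, with 23 of 29 above 0. Between the knockdowns 0 of 29 passed, again with 0% of all genes, 0 had an unadjusted p below 0.05, against 1.72% of all genes, and the median was -0.01.

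Without control library c, the share of all genes called was 1.58% in UXS1 siRNA and 1.33% in MRPL42 siRNA, of which 0.502% and 0.533% of all genes were called higher. Of the members 1 of 29 (ALDOC) was called higher under UXS1 siRNA and 2 of 29 (ALDOC and ENO2) under MRPL42 siRNA, and none lower. Both are the less abundant isozymes of their steps. In DESeq2 with all libraries, 3.63% and 5.35% of all genes were called, and among members ENO1 in both comparisons and ALDOA in MRPL42 siRNA, all higher; ALDOC and ENO2 were not called there.

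**Figure D4:**
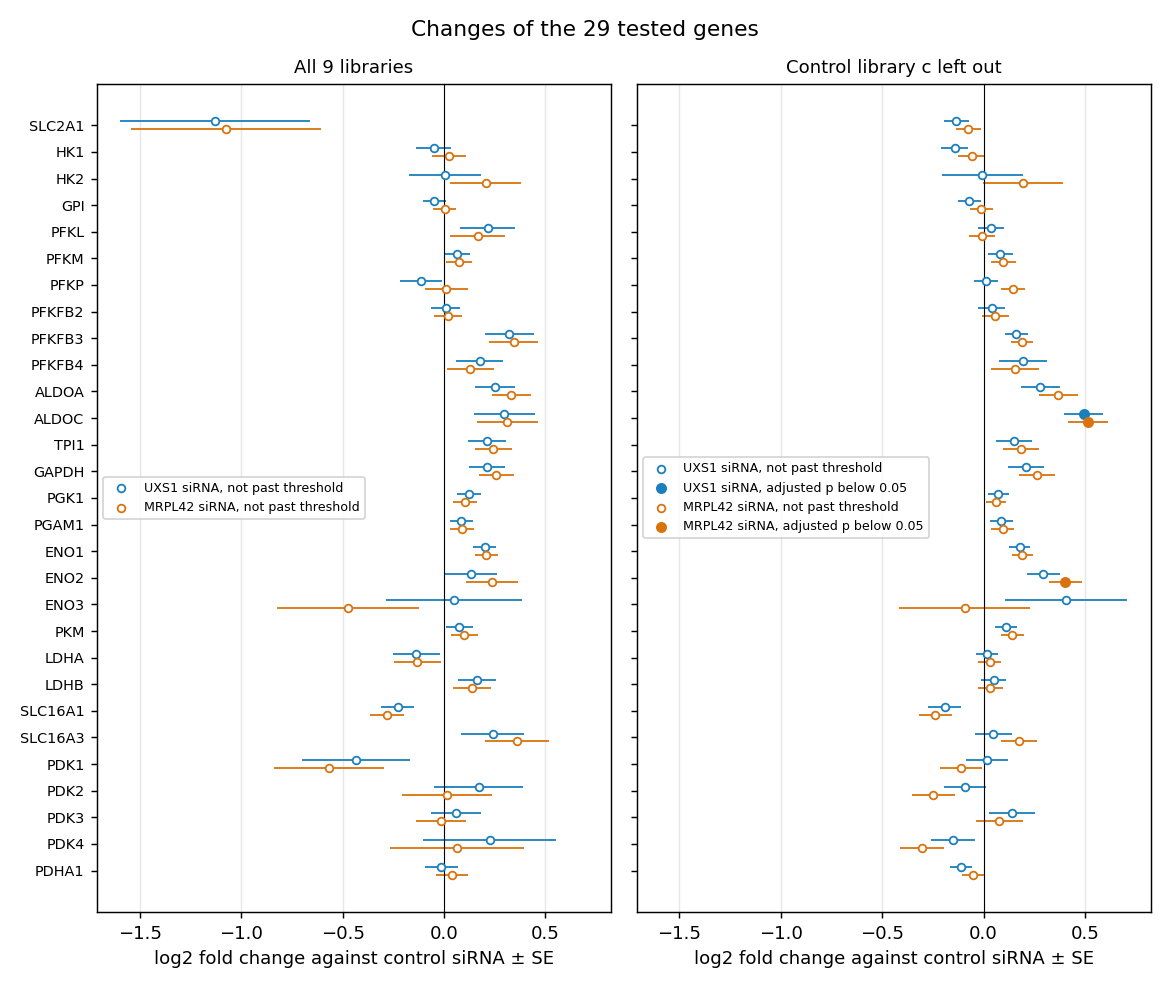
Log2 fold change ± SE of the 29 tested members against control siRNA in the edgeR fit, with all 9 libraries on the left and without control library c on the right. Filled points passed an adjusted p of 0.05; the values of SLC2A1 and PDK1 move to near 0 on the right, while those of ENO1 are 0.20 and 0.21 on the left and 0.18 and 0.19 on the right.

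Libraries that did not overlap were counted. All UXS1 siRNA libraries lay above all controls for 7 members (24.1%; 15.3% of all genes): PFKFB3, ALDOA, TPI1, GAPDH, PGK1, PGAM1 and ENO1. They lay below all controls for SLC2A1, GPI and SLC16A1 (10.3%; 10.9% of all genes). All MRPL42 siRNA libraries lay above all controls for 6 members (20.7%; 11% of all genes), PFKFB3, PFKFB4, ALDOA, GAPDH, PGK1 and ENO1, and below them for SLC16A1 (3.45%; 10.5% of all genes). Without control library c, 13 members (44.8%; 22.2% of all genes) lay above under UXS1 siRNA and 11 (37.9%; 16.4% of all genes) under MRPL42 siRNA. The genes below were 5 (17.2%; 18.5% of all genes) and 3 (10.3%; 17.5% of all genes).

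**Figure D5:**
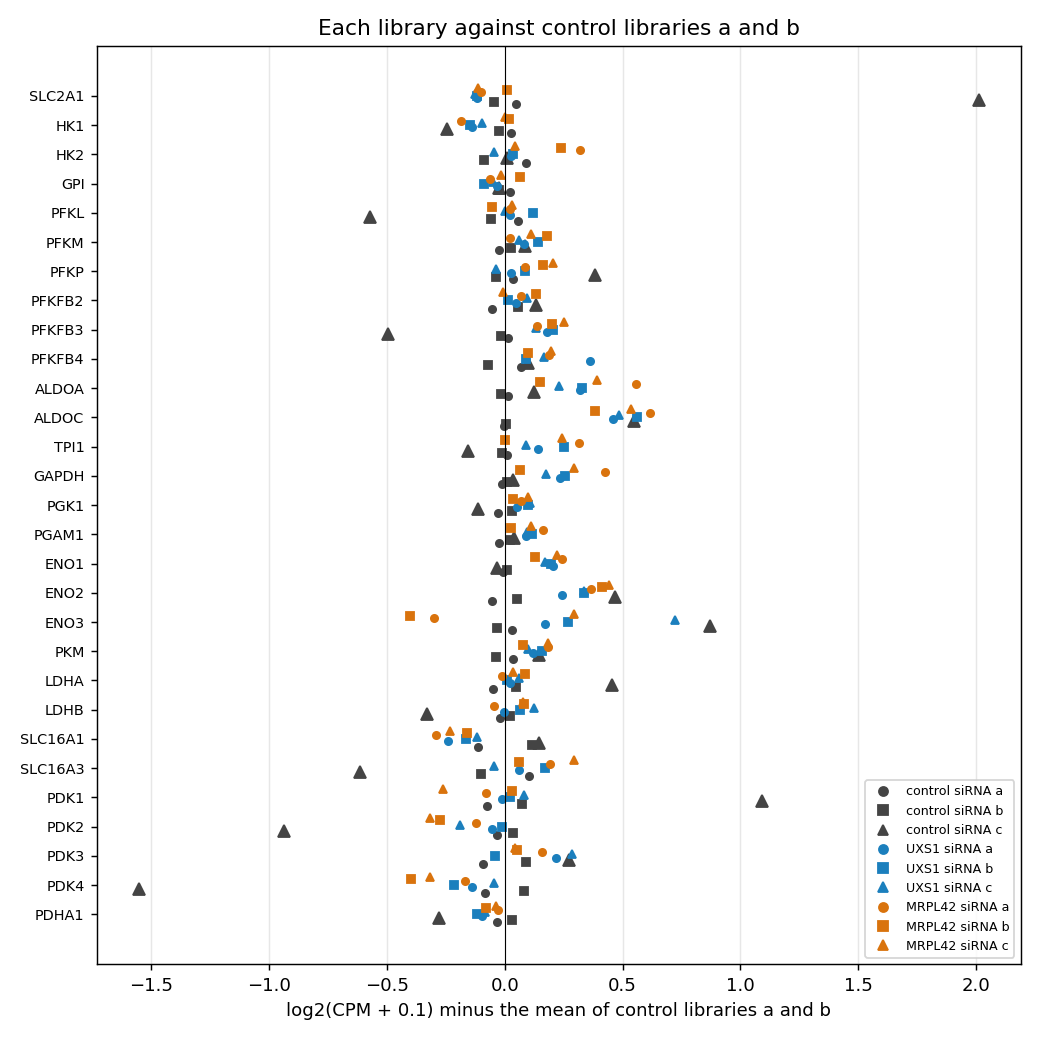
Each library's log2(CPM + 0.1) of the 29 tested members minus the mean of control libraries a and b, with colour for the siRNA group and shape for the library letter. The knockdown libraries lie mostly within 0.5 of 0, and control library c reaches 2.01 for SLC2A1, 1.09 for PDK1 and -1.55 for PDK4.

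Between the knockdowns, the UXS1 siRNA libraries all lay below the MRPL42 siRNA libraries for SLC2A1, HK2, PFKP, ENO2 and PDHA1 (17.2% of members; 4.31% of all genes) and above them for none (5.79% of all genes). The differences were small: -0.05 ± 0.46 for SLC2A1, -0.20 ± 0.18 for HK2, -0.13 ± 0.10 for PFKP, -0.10 ± 0.13 for ENO2 and -0.05 ± 0.08 for PDHA1 on the log2 scale, with edgeR adjusted p of 0.9998 for each. No member was called between the knockdowns, whether control library c was kept or not (0% of all genes in both fits).

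Genes around the pathway were read from lists. Of 26 other isozymes and regulators of glycolysis 12 were tested. None passed the edgeR test in either comparison, with or without control library c. Of all genes, 0.0158% and 0% passed with all libraries, and 1.58% and 1.33% without that library. HKDC1 had the smallest p, with -0.38 ± 0.11 under UXS1 siRNA and -0.31 ± 0.11 under MRPL42 siRNA (edgeR adjusted p = 0.174 and 0.173; DESeq2 called it lower under UXS1 siRNA, adjusted p = 0.0356), followed by PGM1, a phosphoglucomutase, at 0.16 and 0.15. Of the 7 partners of monocarboxylate transport 4 were tested and none passed the edgeR test. MPC2, a subunit of the mitochondrial pyruvate carrier, stood at 0.45 ± 0.13 and 0.40 ± 0.13 (edgeR adjusted p = 0.174 and 0.150; DESeq2 called it higher under UXS1 siRNA, adjusted p = 0.0464), and BSG, the chaperone of MCT1 and MCT4, at -0.02 and 0.02. None of the 7 tested genes of the pyruvate dehydrogenase complex and its phosphatases passed in edgeR or DESeq2, with values from -0.17 to 0.15 over both comparisons. DESeq2 called 3.63% and 5.35% of all genes, with 1.15% lower and 2.48% higher under UXS1 siRNA.

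In the pathways that share its intermediates, none of 5 tested gluconeogenesis genes and none of 8 tested pentose phosphate genes passed the edgeR test with all libraries. In that fit 0.0158% of all genes passed under UXS1 siRNA and 0% under MRPL42 siRNA. PGLS, which makes phosphogluconate, stood at 0.55 ± 0.17 and 0.58 ± 0.17, and TALDO1, the transaldolase, at 0.29 ± 0.10 and 0.34 ± 0.10. DESeq2 called both higher in MRPL42 siRNA (adjusted p = 0.0347 and 0.0437), as it did 4.12% of all genes. With the length correction in edgeR the values were 0.26 and 0.27 for PGLS and 0.12 and 0.16 for TALDO1. PCK2, the mitochondrial carboxykinase, stood at -0.55 ± 0.14 and -0.43 ± 0.14 without control library c (edgeR adjusted p = 0.0829 and 0.126). With the length correction as well, its UXS1 siRNA value of -0.55 passed as lower (edgeR adjusted p = 0.0405), as did 1.48% of all genes, and that of -0.44 in MRPL42 siRNA did not (edgeR adjusted p = 0.0902).

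Of 25 hypoxia-inducible genes outside glycolysis 22 were tested. None passed the edgeR test with all libraries, where 0.0158% and 0% of all genes did. Once control library c was left out 3 fell in both knockdowns and none rose in edgeR, against 1.07% and 0.792% of all genes called lower. VEGFA, the angiogenic factor, fell by 0.54 and 0.50 on the log2 scale, NDRG1 fell by 0.36 and 0.34, and DDIT4, an inhibitor of mTORC1, fell by 0.82 and 0.74 (edgeR adjusted p between 0.00727 and 0.0226). DDIT4 stood at 124, 114 and 32.8 CPM in control libraries a, b and c and at 58.4 to 78.7 CPM in the knockdown libraries. Its fall thus rests on control libraries a and b, and control library c lay below all 6 knockdown libraries. NDRG1 stood at 158, 154 and 293 CPM in those controls and at 121 to 127 CPM in the knockdown libraries. Without control library c the median over the list was -0.06 and -0.0045, against -0.0072 and -0.01 over all genes. VEGFA stood at 57.4, 52.6 and 48.3 CPM in control libraries a, b and c, 39.3, 38.6 and 36.97 CPM in the UXS1 siRNA libraries and 41.9, 36.7 and 38.5 CPM in the MRPL42 siRNA libraries. All 6 knockdown libraries lay below all controls, and with all libraries VEGFA missed the edgeR threshold (-0.46 ± 0.08 and -0.43 ± 0.08, adjusted p = 0.115 and 0.132) while DESeq2 called it lower in both, as it did NDRG1 and 1.15% and 1.22% of all genes. With the length correction VEGFA was lower in edgeR too, at -0.68 and -0.66 (adjusted p = 0.00910 and 0.0231), as were 0.0632% and 0.0158% of all genes. CA12, a carbonic anhydrase, went the other way. Its log2 fold changes of 0.17 ± 0.05 and 0.17 ± 0.05 were not called by edgeR with all libraries (adjusted p = 0.178 and 0.150). DESeq2 called CA12 higher in both (adjusted p = 0.0215 and 0.0163), as it did 2.48% and 4.12% of all genes. With the length correction and without control library c, edgeR called CA12 higher in both (adjusted p = 0.0220 and 0.0208), where 2.49% of all genes passed under UXS1 siRNA, 1.0% as higher, and called DDIT4, NDRG1 and VEGFA lower in both, where 1.48% and 1.26% of all genes passed as lower. None of the 15 tested regulators of glycolytic genes passed in edgeR or DESeq2 with all libraries, or in edgeR without control library c. MYC passed as lower under UXS1 siRNA with the length correction and without that library, at -0.32 (edgeR adjusted p = 0.0236). HIF1A stood at -0.17 ± 0.08 and -0.22 ± 0.08 (edgeR adjusted p = 0.312 and 0.189). The marker list of fibroblasts, endothelium and leukocytes had no edgeR call among all 9 libraries. Once control library c was left out it had 1 call, CD68, a lysosomal glycoprotein, at 0.44 and 0.54. That fit called 0.502% and 0.533% of all genes higher. The 17 tested hepatocyte markers and the 2 tested muscle and neural markers had no call in either edgeR fit. APOH, a plasma glycoprotein, was called lower by DESeq2 in MRPL42 siRNA (adjusted p = 0.0271) and, with the length correction and without control library c, in both knockdowns by edgeR at -0.34 and -0.46 (adjusted p = 0.0250 and 0.00598). FGG, a fibrinogen chain, was called lower there in MRPL42 siRNA at -0.51 (edgeR adjusted p = 0.0444).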

How the data were processed

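Per the labels' protocols, poly(A) RNA was captured on beads, fragmented and made into PCR-amplified cDNA libraries. Per the submitters' processing notes, the tools included fastp, Bowtie2, HISAT2 and edgeR, and the build was hg38. Their roles and versions, the annotation, the counting program and the strand setting are not stated in these sources. Reads of overlapping or antisense genes, and of processed pseudogenes, which GAPDH, PGK1, LDHA, LDHB, TPI1, PGAM1 and ENO1 have, may therefore be misassigned. The deposited table, as the authors made it, holds estimated counts per gene, of which 83.6% to 84.9% of values above 0 were whole. It also holds 9 further columns of per-library values, which the design named for isozyme shares. Like the count columns, these 9 columns could not each be tied to 1 sample. The count columns were still used by group, and these 9 were not used. In their place CPM was divided by transcript length in units of 1000 bases, the median of a gene's principal transcripts in GENCODE 29, and an alternative with the median of all its transcripts was chosen after seeing the data. A design written for raw counts was run on the estimated counts rounded to whole numbers. Without molecular identifiers, PCR copies cannot be told from separate molecules.

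Columns were matched to groups by name; UXS1 siRNA columns carry that name with 2 letters exchanged, and the letters a, b and c are not tied to repeat numbers. After filterByExpr and TMM scaling, genes were fitted in edgeR 4.0.16 (R 4.3.3) with 1 mean per group over all 9 libraries. The quasi-likelihood test was two-sided, with Benjamini-Hochberg adjustment over 12657 genes and a threshold of 0.05. SE is that of the fitted log2 fold change. The common biological coefficient of variation was 0.130, and 0.0753 without control library c. Isozyme shares were tested by exact permutation. Alternatives were RLE scaling, DESeq2 1.42.0, limma-voom (limma 3.58.1), no filter, only 6 libraries, each library left out, and offsets from a lowess curve (span 0.3) on GENCODE 29 transcript length, found for 20128 genes, with and without control library c. The scripts were tested on simulated data.

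Per-library values are given for members past the threshold, with or without control library c, for leading isozymes, and for members with no overlap and a log2 fold change of at least 0.3; the other members are given by range. From other lists up to 3 members with the smallest p were taken; BSG, CD68, CA12, APOH, FGG, MYC, SLC2A8 and SLC2A13 were chosen after their values were seen. Members and lists were chosen with earlier results of these data known. The list of 4 nuclear-retained RNAs had no entry in the table. Promoter windows came from RefSeq for 29 of 32 members.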

Additional observations from a re-analysis of the deposited data

How the results depend on the processing

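Under UXS1 siRNA 2 genes of the whole table passed the threshold with all libraries, also with RLE scaling, limma-voom and no filter; DESeq2 gave 460, the 6 libraries alone 253, the length offset 8 and the length offset without control library c 317. Under MRPL42 siRNA the count was 0, with 677 in DESeq2, 2 with the length offset and 292 with the length offset without control library c. Leaving out 1 library at a time gave 0 to 355 genes under UXS1 siRNA (201 without control library c, 355 without MRPL42 siRNA library b) and 0 to 810 under MRPL42 siRNA (169 and 810), the others giving 0. Between the knockdowns no alternative gave a call. The cause of these differences was not tested, beyond the fewer libraries in each fit.

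Of 736 alternative values for 23 of the 29 tested members, 679 kept direction and side of the threshold, 14 passed it and 43 turned direction. The turns listed after these do not cover all 29. Without control library c, PFKL also turned from 0.17 to -0.0079 in MRPL42 siRNA, and HK2 from 0.0039 to -0.0071 in UXS1 siRNA. With the length offset LDHB turned to -0.0131 in MRPL42 siRNA, and PDHA1 to 0.0137 and PDK3 to -0.0031 in UXS1 siRNA. With that offset and without control library c, values in UXS1 siRNA turned to 0.0258 for PFKP, -0.0116 for TPI1, -0.0586 for LDHB, 0.0774 for PDK1, -0.0518 for PDK2 and -0.111 for PDK4. In MRPL42 siRNA they turned to -0.0125 for HK1, -0.0851 for LDHB, -0.206 for PDK2, 0.0352 for PDK3, -0.257 for PDK4 and -0.0168 for PDHA1. With 1 library left out, UXS1 siRNA values ranged from -0.142 to 0.0025 for HK1, -0.195 to 0.011 for PFKP, -0.235 to 0.0174 for LDHA, -0.645 to 0.0159 for PDK1, -0.0917 to 0.338 for PDK2, -0.0269 to 0.143 for PDK3, -0.152 to 0.509 for PDK4 and -0.113 to 0.0505 for PDHA1. MRPL42 siRNA values ranged from -0.0584 to 0.0842 for HK1, -0.0311 to 0.0281 for GPI, -0.0673 to 0.144 for PFKP, -0.229 to 0.0297 for LDHA, -0.248 to 0.180 for PDK2, -0.0997 to 0.0768 for PDK3, -0.304 to 0.348 for PDK4 and -0.0544 to 0.102 for PDHA1. No isozyme share passed with all-transcript lengths, chosen after seeing the data, or with 1 library left out. None could pass, since these exact tests cannot give a p below 0.1. The cause of the turns in direction was not tested. No paired analysis was possible because the columns carry letters and no repeat numbers. Depth limits HK2 and ENO3, with 12 to 40 estimated counts per library, and SLC2A2, SLC2A3 and PKLR, which were not tested.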
